A study of Mus musculus with 4 samples.

Results

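The genes described here are 10 of the 52636 in the deposited table, selected by gene name for their part in BMP and TGF-beta signalling: the inhibitor-of-DNA-binding genes Id1, Id2, Id3 and Id4, the inhibitory SMADs Smad6 and Smad7, the SMAD corepressor Skil, the ligands Tgfb1 and Tgfb2, and the decoy receptor Bambi. The list was chosen from Id1 and Id3, whose counts were slightly higher with norepinephrine in both lines, so every norepinephrine value of these genes below is a description and carries no test. RNA was sequenced from Myc-CaP cells, a mouse prostate cancer line of FVB background from the Hi-Myc transgenic mouse. The cells stably carried hairpins against focal adhesion kinase (FAK, gene Ptk2; shFAK below) or a negative control hairpin (shNC below), and the treatments were vehicle or norepinephrine at 10 µM, given to each line for 24 h. Values given in a run of 4 are in the order control line with vehicle, control line with norepinephrine, shFAK with vehicle and shFAK with norepinephrine. All 4 groups share the Hi-Myc background, and whether a line was 1 clone or a pool is not given in the sources used here. Each group was 1 library, so no difference below has a replicate check, and a hairpin effect cannot be told apart from any other difference between the lines.

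BMP and TGF-beta ligands bind paired type I and type II receptor kinases, which phosphorylate receptor SMADs that enter the nucleus with Smad4. BMP signalling through Smad1 and Smad5 switches on the Id genes, whose products hold E proteins in dimers that cannot bind DNA and so oppose differentiation. The pathway restrains itself: Smad6 and Smad7 block the receptors and the receptor SMADs, Skil (SnoN) represses SMAD-bound promoters, and Bambi is a receptor lookalike without a kinase. In prostate epithelium TGF-beta is known as a growth inhibitor. Norepinephrine raises cAMP through beta-adrenergic receptors.

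The libraries held 23410486 to 29948640 counts, and the library of shFAK with norepinephrine had counts for the most genes (23121, against 20442 to 21678) at the lowest total. The targeted gene Ptk2 had 3547 and 3158 counts in the 2 shNC libraries and 1294 and 1248 in the 2 of shFAK. Among luminal prostate markers, Hoxb13 was at 37 to 49.6 CPM (counts scaled by the effective size of each library), while Krt18, Epcam and Cdh1 had at most 15 counts in a library and Pbsn had none. The luminal set was therefore expressed only in part. Endothelial markers, from a cell type known for high Id1 and Id3, had at most 5 counts each in a library, with a summed level of 0.0377 to 0.27 CPM over 5 genes. Leukocyte markers had at most 2 counts each. Of 6 fibroblast markers Pdgfra alone reached a mean of 1 CPM (7.43 to 12.4 CPM), and Col3a1, Dcn and Lum were at 0.

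RefSeq promoter windows on GRCm38.p6, the mm10 assembly, were given for 6 of the 10 genes: Id2, Id3, Id4, Smad6, Tgfb1 and Tgfb2. Each window runs from 250 bases before to 50 bases after the annotated RefSeq start. In the deposited coordinates Id2 spans 25093799 to 25097140 and Id3 136143497 to 136145755, so both windows lie inside the counted gene. Their sites before the RefSeq start thus fall within that gene, not upstream of it. Those of Id3 (chr4:136143572-136143871, plus strand), Id2 (chr12:25096043-25096342, minus strand) and Tgfb2 (chr1:186705940-186706239, minus strand) are shown because Id3 and Tgfb2 had the 2 largest hairpin differences of the set and Id2 the highest level. They read 5′ to 3′ on the gene's strand, with every match to a searched motif in capitals.
Id3: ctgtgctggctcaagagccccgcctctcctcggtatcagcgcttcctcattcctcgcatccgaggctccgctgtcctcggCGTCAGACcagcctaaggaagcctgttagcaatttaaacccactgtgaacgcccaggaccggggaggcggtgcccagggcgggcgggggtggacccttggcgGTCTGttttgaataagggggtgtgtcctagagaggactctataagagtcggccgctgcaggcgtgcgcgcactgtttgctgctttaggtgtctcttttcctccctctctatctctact
Id2: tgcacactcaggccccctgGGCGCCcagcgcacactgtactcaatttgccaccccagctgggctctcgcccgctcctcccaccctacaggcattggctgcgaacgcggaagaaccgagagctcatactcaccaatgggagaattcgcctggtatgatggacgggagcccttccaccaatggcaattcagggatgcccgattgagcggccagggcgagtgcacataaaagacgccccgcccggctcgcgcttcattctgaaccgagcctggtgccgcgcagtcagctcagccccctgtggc
Tgfb2: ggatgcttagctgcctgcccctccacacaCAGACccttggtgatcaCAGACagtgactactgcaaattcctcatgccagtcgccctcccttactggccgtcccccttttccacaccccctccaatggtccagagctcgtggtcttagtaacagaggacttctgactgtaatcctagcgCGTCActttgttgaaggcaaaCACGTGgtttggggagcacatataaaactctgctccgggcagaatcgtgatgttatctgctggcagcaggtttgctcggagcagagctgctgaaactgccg

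Each motif was searched on both strands in these windows. TGACG, the half-site of the cAMP response element, was found once in Id3, once in Tgfb2 and once in Id4, and in 20.8% of all 32851 windows of that length. CAGAC, the SMAD-binding letters, was found at 2 places in Id3 and 2 in Tgfb2, and in 49.6% of all windows. In Id3 the first of them starts at -167 from the annotated start and overlaps the cAMP half-site that starts at -170. GGCGCC, the GC-rich SMAD site of BMP-responsive genes, was found once in Id2 (at -231) and once in Id4, and in 11.9% of all windows. The E-box CACGTG, the Myc-binding letters, was found in Tgfb2 alone (at -51, beside the cAMP half-site at -72), and in 7.15% of all windows. The windows of Smad6 and Tgfb1 held none of the 4 motifs. A match describes the letters only.

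Of the 10 genes, 8 had at least 1 CPM in at least 1 library, as did 12351 genes in all. The other two were Id4, with a single count in shFAK norepinephrine and 0 in the other 3 libraries, and Bambi, with 1 count in shNC vehicle, 1 in shFAK norepinephrine and 0 in the others. Both were below the 3 counts (at most 0.12 CPM) that a count of 0 allows, so no ratio is given for them. Id4 overlaps 2 genes on the opposite strand and Tgfb2 overlaps 2, with at most 2 counts each in any library. None of the 10 shared 100 or more matching bases at 95% identity with another annotated gene.

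Per length, as TPM (transcript abundance scaled to the same total in each library) computed from the counts and the deposited gene lengths, Id2 and Id1 led the set. Id2 (chromosome 12, 25093799 to 25097140) stood at 134, 155, 177 and 187 TPM. Its mean of 163 TPM lay above 91% of the genes kept. Id1 (chromosome 2, 152736251 to 152737410) stood at 103, 138, 139 and 162 TPM. The ranges of these 2 genes overlap, but Id2 was the higher in each of the 4 libraries, by 1.12 to 1.31 times. Id3 (chromosome 4, 136143497 to 136145755) was much lower, at 18.1, 24.5, 31.7 and 43.4 TPM. Id3 thus made up 7.09% of the summed level of the 3 Id genes in the control line with vehicle, 7.73% once norepinephrine was given, and 9.13% and 11% in the matching shFAK libraries.

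Below Id1 came Smad6 (chromosome 9, 63953076 to 64022059), at 34.3, 38.1, 54.2 and 57.5 TPM. Smad7 (chromosome 18, 75367529 to 75395935), the inhibitory SMAD best known for blocking TGF-beta receptors, was nearly level at 29.3, 30.6, 30.6 and 32.4 TPM. The ranges of Smad7, Id3 and Tgfb1 (chromosome 7, 25687002 to 25705077; 24.4 to 33.5 TPM) overlap, so these 3 have no clear order. Skil (chromosome 3, 31095058 to 31122577) was at 14.4, 10.5, 19 and 17.7 TPM and Tgfb2 (chromosome 1, 186622792 to 186705989) at 8.21, 7.57, 16.4 and 13.1 TPM. Their ranges overlap, with Skil the higher in each library. Smad6 exceeded Smad7 by 1.17 and 1.24 times in the shNC libraries and by 1.77 times in both shFAK libraries. Tgfb1 exceeded Tgfb2 by 2.97 and 3.49 times in shNC vehicle and norepinephrine, and by 1.92 and 2.56 times in shFAK. TPM serves here to order genes within a library. Differences between libraries, below, are on the CPM scale, and the scales can differ: Id1 in the 2 norepinephrine libraries was at 138 and 162 TPM but at 63.7 CPM in both.

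**Figure D1:**
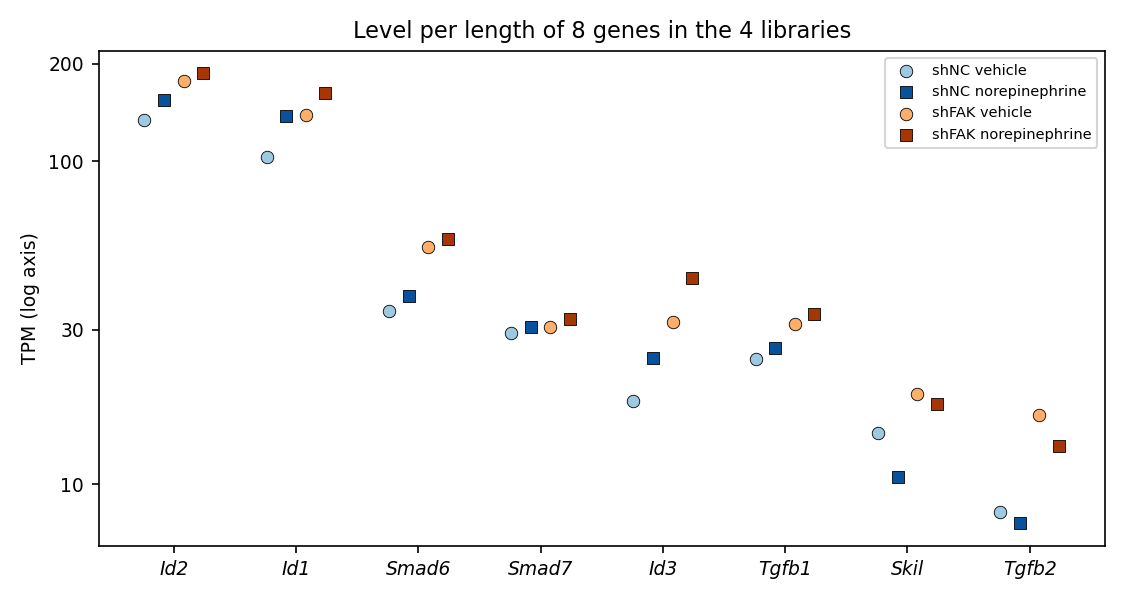
Level of the 8 detected genes in TPM (log axis), with 1 point per library, coloured by line and shaped by treatment. Id2 and Id1 lie at 103 TPM or above in every library, and Smad7 stays within 29.3 to 32.4 TPM. The shFAK points of Id1, Id2, Id3, Smad6, Skil, Tgfb1 and Tgfb2 lie above both shNC points on this scale. In CPM, used for differences between libraries, this does not hold for Id1, Id2 and Tgfb1. There shFAK vehicle lies below shNC norepinephrine, at 53.5 against 63.7, 143 against 150 and 52.7 against 53 CPM.

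The hairpin comparison, whose values the rule of choice did not use, asked how the FAK hairpin line differed from the control line. Tgfb2, Id3, Smad6 and Skil were higher in shFAK, by 1.65, 1.56, 1.37 and 1.32 times, and none of the 8 genes was called lower. The test was the quasi-likelihood test of edgeR in a model where hairpin and treatment add, with p-values adjusted over all 12351 genes. Of those genes, 19.5% were called higher in shFAK and 16.3% lower, so 4 of 8 is to be read against a background in which 35.8% of genes were called. The model has 1 residual degree of freedom, takes its spread wholly from a pool over genes, and holds only if norepinephrine acts alike in the 2 lines. As counted, the responses of the lines differed beyond counting error for Tgfb2 (-0.33, 99% counting interval -0.64 to -0.02) and Skil (0.24, 0.04 to 0.44). They also did for Id1 and Id2. A gene's own departure of this kind does not enter its SE or p, so the log2 ratio in each treatment is given beside them. In bulk RNA, fewer cells with a transcript and less of it per cell cannot be told apart.

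Tgfb2, which encodes a secreted TGF-beta ligand, had 507, 465, 838 and 614 counts. Both shFAK libraries lay above both shNC libraries also after scaling, at 31.6 and 25.5 CPM against 17.1 and 17.4. The log2 ratio was 0.88 in vehicle (99% counting interval 0.67 to 1.10) and 0.55 in norepinephrine (0.32 to 0.78). The additive difference was 0.72 ± 0.10 (SE) on the log2 scale, higher in 2 of 2 pairs, with an adjusted p of 2.71e-11 by edgeR. Of the summed level per length of Tgfb1, Tgfb2 and Tgfb3, Tgfb2 held 17.6% and 15.6% in the shNC libraries and 24.3% and 19.0% in the shFAK libraries.

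Id3 had 346, 466, 501 and 631 counts. After scaling these were 11.7, 17.5, 18.9 and 26.3 CPM, so the shFAK libraries were the 2 highest, although shFAK vehicle lay close to shNC norepinephrine. The log2 ratio of shFAK to shNC was 0.69 in vehicle (0.43 to 0.96) and 0.58 in norepinephrine (0.36 to 0.82). The additive difference was 0.64 ± 0.10 (SE), higher in 2 of 2 pairs, with an adjusted p of 1.73e-08 by edgeR. Its relatives Id1 and Id2 were not called, at 0.15 ± 0.088 (adjusted p of 0.16 by edgeR) and 0.16 ± 0.088 (0.142). On the CPM scale their log2 ratios were 0.32 and 0.28 in vehicle and 0.00 and 0.04 in norepinephrine. The norepinephrine value of Id1 depended on the scale, and was 0.21 once trends of the counts with gene length and GC content were removed.

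Smad6, which restrains BMP receptors, had 1172, 1293, 1531 and 1498 counts, or 39.6, 48.5, 57.7 and 62.3 CPM. Both shFAK libraries were above both shNC libraries. The log2 ratio was 0.54 in vehicle (0.40 to 0.69) and 0.36 in norepinephrine (0.22 to 0.50), and the additive difference 0.45 ± 0.087 (SE, adjusted p of 3.37e-06 by edgeR). Smad7 did not follow it: with 1412, 1466, 1219 and 1191 counts its log2 ratios were -0.05 (-0.20 to 0.09) and -0.15 (-0.30 to 0.00), and its additive difference was -0.10 ± 0.088 (adjusted p of 0.386 by edgeR).

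Skil, the SnoN corepressor, had 1488, 1074, 1625 and 1394 counts, or 50.2, 40.3, 61.2 and 58 CPM, again with both shFAK libraries on top. Its additive difference was 0.40 ± 0.087 (SE, adjusted p of 3.99e-05 by edgeR), from log2 ratios of 0.29 in vehicle (0.15 to 0.42) and 0.53 in norepinephrine (0.37 to 0.68). At 9694 bases it is the longest of the set, and the hairpin ratios of all genes were higher for longer genes (Spearman correlation across 12351 genes 0.32 in vehicle and 0.47 in norepinephrine). With a smooth dependence of the counts on gene length and GC content removed library by library (the trend, below), the difference of Skil was 0.16 and lost its call (0.0637 for the adjusted p by edgeR), while Id3 was at 0.74, Smad6 at 0.44 and Tgfb2 at 0.60, all still called. Id1, the shortest at 1160 bases, then reached 0.32 and was called. Tgfb1, at 1312, 1413, 1398 and 1370 counts, was at 0.18 ± 0.087 (adjusted p of 0.0989 by edgeR).

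By a rule of size, a log2 ratio of at least 0.322 in size with a counting interval that leaves out 0, 3 of the 8 genes were higher in shFAK in vehicle (Id3, Smad6 and Tgfb2) and 4 in norepinephrine (the same with Skil). Among all genes the rule was met by 9.92% as higher and 5.54% as lower in vehicle, and by 17.7% and 13.3% in norepinephrine. Id3, Smad6 and Tgfb2 met it in both treatments, as did 7.59% of all genes, with 3.82% lower in both. The vehicle pair does not use the shFAK norepinephrine library that stands apart in genes detected. The median log2 ratio of the 8 genes was 0.30 in vehicle and 0.23 in norepinephrine, against 0 and 0.02 over all genes.

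**Figure D2:**
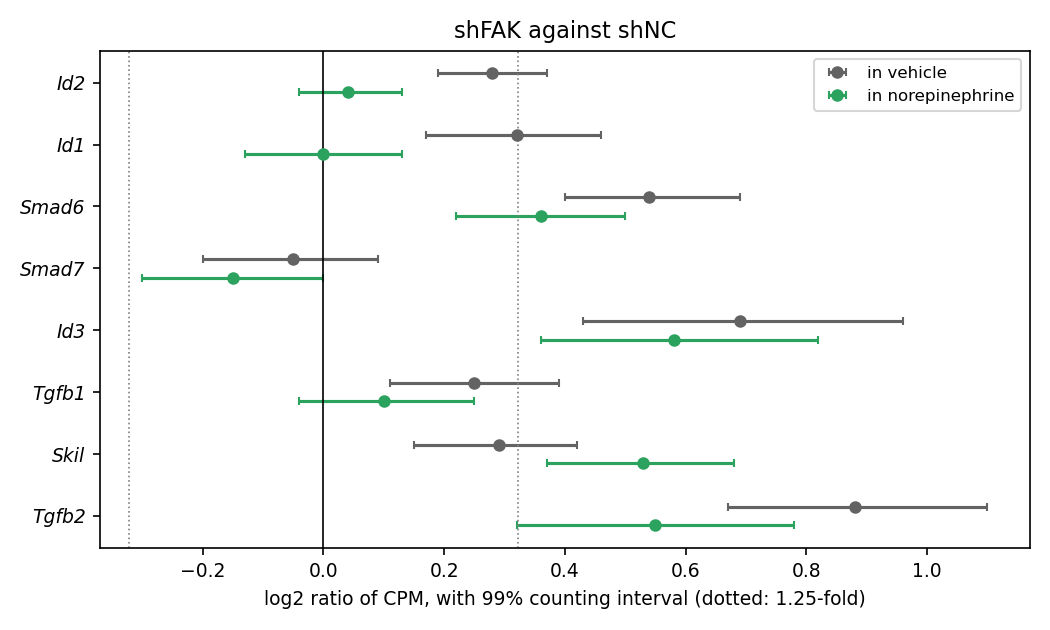
Log2 ratio of shFAK to shNC (horizontal axis) for the 8 detected genes, in vehicle and in norepinephrine, with 99% counting intervals and dotted lines at a log2 ratio of 0.322 in size. Tgfb2, Id3 and Smad6 lie beyond the dotted line in both treatments, Id1 and Id2 lie near 0 in norepinephrine, and Smad7 lies below 0 in both.

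The treatment comparison gave the values from which the set was chosen, and they are described without a test. Id1 had 1273, 1699, 1420 and 1530 counts, or 43, 63.7, 53.5 and 63.7 CPM. On this scale the 2 norepinephrine libraries were level, and shFAK was the higher of the vehicle libraries. The log2 ratio of norepinephrine to vehicle was 0.57 in shNC (99% counting interval 0.43 to 0.71) and 0.25 in shFAK (0.11 to 0.39). Id3, the lowest of the 3 detected Id genes, had log2 ratios of 0.58 in shNC (0.31 to 0.85) and 0.47 in shFAK (0.25 to 0.70). Id2, with 3492, 4001, 3804 and 3709 counts, was at 0.35 in shNC (0.26 to 0.43) and 0.11 in shFAK (0.02 to 0.19). All 3 detected Id genes were thus higher with norepinephrine in each line, and Id3 alone met the rule of size in both, as 0.737% of all genes did as higher and 0.802% as lower.

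The other genes had smaller ratios in shNC. Smad6 was at 0.29 in shNC (0.14 to 0.44) and 0.11 in shFAK (-0.02 to 0.25), Smad7 at 0.21 (0.07 to 0.35) and 0.11 (-0.04 to 0.26). Tgfb1 was at 0.26 (0.12 to 0.40) and 0.11 (-0.03 to 0.26). Skil went the other way, at -0.32 in shNC (-0.47 to -0.17) and -0.08 in shFAK (-0.22 to 0.06). Tgfb2 was at 0.03 in shNC (-0.21 to 0.27) and -0.31 in shFAK (-0.51 to -0.11). In all, 3 of the 8 genes met the rule of size as higher in shNC (Id1, Id2 and Id3), where 7.65% of all genes did and 10.1% were lower, and 1 in shFAK (Id3), where 2.49% did and 1.51% were lower. None of the 8 met it as lower in either line, with Skil in shNC just short. With library size as the only scaling, Id2 (0.31) no longer met it in shNC and Skil (-0.35) met it as lower, and with the length trend alone removed Id2 was at 0.25. Because this contrast chose the genes, nothing is read from these shares.

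**Figure D3:**
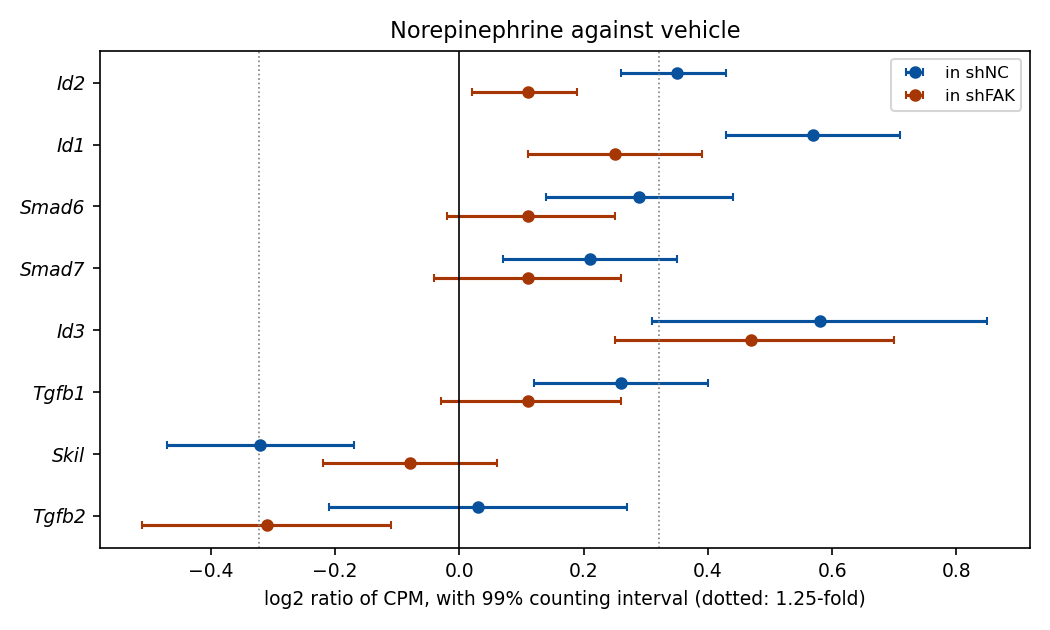
Log2 ratio of norepinephrine to vehicle (horizontal axis) for the 8 detected genes, in shNC and in shFAK, with 99% counting intervals and dotted lines at a log2 ratio of 0.322 in size. Id1, Id2 and Id3 lie beyond the dotted line in shNC, Id3 alone does in shFAK, and Skil and Tgfb2 are the genes with a ratio below 0.

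The norepinephrine ratios of all genes were lower for longer genes (Spearman correlation across genes -0.49 in shNC and -0.29 in shFAK), and the 3 detected Id genes are short, at 1160 to 2438 bases. Once the trends with length and GC content were removed, the shNC ratios were 0.37 for Id1, 0.40 for Id3 and 0.32 for Id2, and the shFAK ratios 0.15, 0.35 and 0.13. Skil, the longest, was then at -0.05 in shNC and 0.05 in shFAK. Smad6 went from 0.29 to 0.10 in shNC and from 0.11 to -0.11 in shFAK. Smad7 in shFAK went from 0.11 to -0.03. Tgfb1 was at 0.28 and 0.08. The 3 detected Id genes and Tgfb1 thus kept a ratio above 0 in both lines. The ratios of Tgfb2 (0.15 in shNC and -0.27 in shFAK), Skil, Smad6 and Smad7 had unlike signs in the lines. Those of Skil, Smad6 and Smad7, and of Tgfb2 in shNC, are small against the widths of the counting intervals above, so their signs give no direction.

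**Figure D4:**
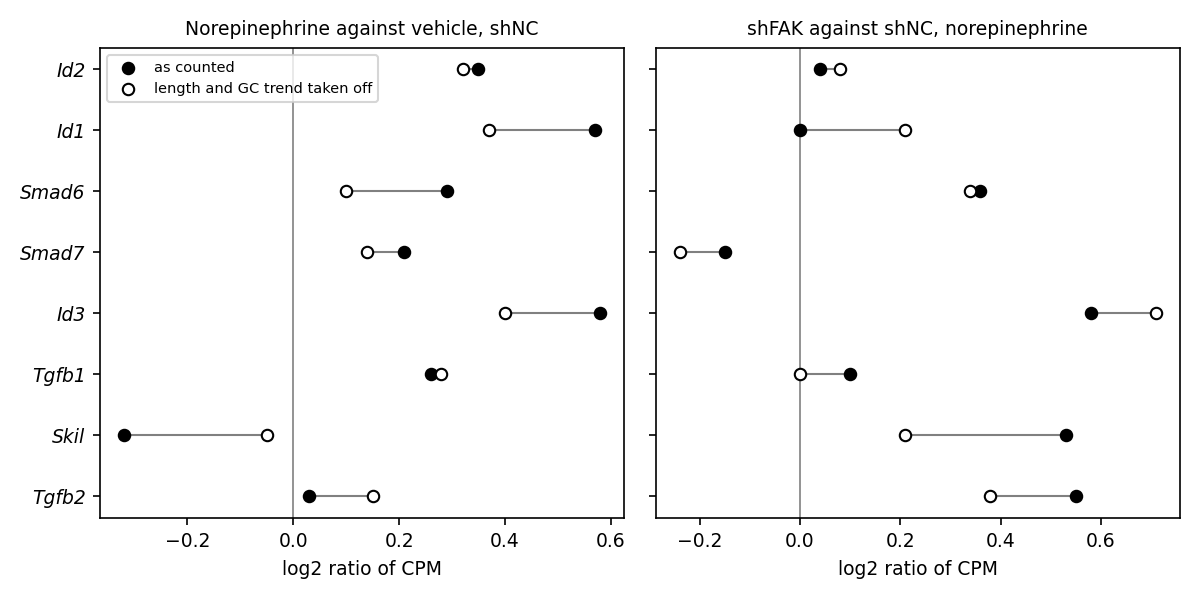
Log2 ratios of the 8 detected genes as counted (filled) and with a smooth trend of gene length and GC content taken off (open), for norepinephrine against vehicle in shNC (left) and shFAK against shNC in norepinephrine (right). Skil shifts most, from -0.32 to -0.05 on the left and from 0.53 to 0.21 on the right, while Id3 stays at 0.40 or above on both sides.

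Between the lines, the response of shFAK minus that of shNC was -0.32 on the log2 scale for Id1 (99% counting interval -0.51 to -0.12), -0.24 for Id2 (-0.36 to -0.12), -0.33 for Tgfb2 (-0.64 to -0.02) and 0.24 for Skil (0.04 to 0.44). For these 4 genes the interval left out 0, as it did for 23.1% of all genes. Id3 differed by -0.10 (-0.45 to 0.24), Smad6 by -0.18 (-0.38 to 0.02), Smad7 by -0.10 (-0.30 to 0.11) and Tgfb1 by -0.14 (-0.35 to 0.06). With the trend taken off, Skil was at 0.09 and its interval no longer left out 0, while that of Smad6 (-0.22) then did. These intervals cover counting error only.

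The rest of the pathway was read from 11 lists of 128 further genes, of which 66 were kept. In the additive model 29 of the 66 were higher in shFAK and 6 lower, a share of 53% called against 35.8% of all genes. Once these trends were removed, 26 were higher and 11 lower, with 28 called in the same direction both ways. Among all genes 12% were then higher and 20.8% lower. The kept pathway genes have a median length of 5470 bases, against 3981 for all kept genes.

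Receptors and co-receptors were the fullest list, with 13 of 17 kept, 9 higher in shFAK and none lower (8 and none with the trend taken off). Tgfbr3, the betaglycan co-receptor that presents Tgfb2, was at log2 0.83 (867, 656, 1319 and 1104 counts; adjusted p of 2.09e-16 by edgeR). The type II receptors Bmpr2 and Tgfbr2 were at 0.58 and 0.52, and the BMP type I receptor Bmpr1a at 0.37. Bmpr2 has a length of 17983 bases and was at 0.23 with the trend taken off, when Tgfbr2 was at 0.33, Bmpr1a at 0.22 and Tgfbr3 at 0.69. All 3 kept ligands of the TGF-beta, activin and GDF list were higher in shFAK, also with the trend taken off: Tgfb3 at 0.37, the activin subunit gene Inhba at 0.56 and Gdf11 at 0.34. Of the BMP ligands 2 of 14 were kept; Bmp8a was at 0.74 (adjusted p of 3.63e-09 by edgeR), and Bmp6, at 4 to 29 counts per library, was not called.

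The SMAD transducers differed little. Smad2, Smad3, Smad4 and Smad5 were at -0.02, 0.12, 0.20 and 0.02 and were not called, and Smad9, a BMP transducer, was the 1 of 5 kept genes that was higher (0.57, adjusted p of 1.62e-06 by edgeR). Smad1 had 0, 0, 0 and 1 counts, so of the BMP transducers Smad5 and Smad9 were the detected ones. Extracellular antagonists gave 1 of 3 higher, Twsg1 at 0.49, with Fstl3 (0.20) and Bmper (0.18) not called. With the trend taken off, Fstl3 (0.24) was called too. In the latency and activation list 2 of 6 were higher, Ltbp4 at 0.24 and Itgav at 0.64, while the latent-complex gene Ltbp1 was at 0.20, Ltbp3 at 0.07 and the convertase gene Furin at 0.15, none of them called. With the trend taken off, Ltbp4 (0.12) lost its call and Itgav was at 0.40.

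Intracellular negative regulators gave 3 of 10 higher and 2 lower (1 and 4 with the trend taken off). Ski, the paralog of Skil, was at 0.22 and was no longer called with the trend taken off. Fkbp1a, which holds type I receptors inactive, was at -0.30 and was called lower, and Ppm1a (-0.21) and Strap (-0.20) were not called. Of the positive regulators 4 of 6 were higher and none lower (2 and 2 with the trend taken off): Ep300 was at 0.64, Crebbp at 0.36 and Rnf111 at 0.31, with Usp15 (-0.04) not called. With the trend taken off, Usp15 (-0.37) was called lower, Crebbp (0.08) and Rnf111 (0.10) were not called, and Ep300 was at 0.35.

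Other output genes of TGF-beta split, with 3 of 9 higher and 3 lower (4 and 4 with the trend taken off). Col1a1, at 11, 4, 24 and 24 counts, is among the higher genes both ways, here and in the pathway totals above. By library total it reached 1 CPM only in shFAK norepinephrine. It was thus kept only through the line where it was high, and nothing is read from its call. Fn1, fibronectin, was at 0.61 (0.37 with the trend taken off), while Ctgf (also named Ccn2) was at -0.46, Cyr61 (also named Ccn1) at -0.53 and the AP-1 gene Junb at -0.44, all called by edgeR. Other BMP output genes gave 1 of 6 higher, Gata3 at 0.35, and 3 with the trend taken off (Gata3, Dlx2 and Hes1), while as counted Dlx2 (0.21), Hes1 (0.33) and Msx2 (-0.04) were not called. Of the bHLH partners that Id proteins bind, Tcf3 was at -0.04 and not called, Tcf12 was at -0.29 and called lower (-0.59 with the trend taken off), and Tcf4 was at 0.42 and called higher, but at 0.02 with the trend taken off.

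For norepinephrine, 2 of the 66 pathway genes were called higher and 7 lower in the additive model, where 5.04% and 7.34% of all genes were. The 2 were Junb (0.24, adjusted p of 0.0499 by edgeR) and the endothelial co-receptor gene Eng (0.44, 0.0156). The lower ones included Ep300 at -0.41 (adjusted p of 0.000303 by edgeR), Fn1 at -0.25 and Tcf12 at -0.29. Once the trends with length and GC were removed, edgeR called none of the 66 (8 at an unadjusted p under 0.05), and the DESeq2 Wald test without that correction also called none (8 at an unadjusted p under 0.05). Hes1 (0.35), Dlx2 (0.20), Gata3 (0.06) and Msx2 (0.17), the BMP output genes named here, were not called.

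**Figure D5:**
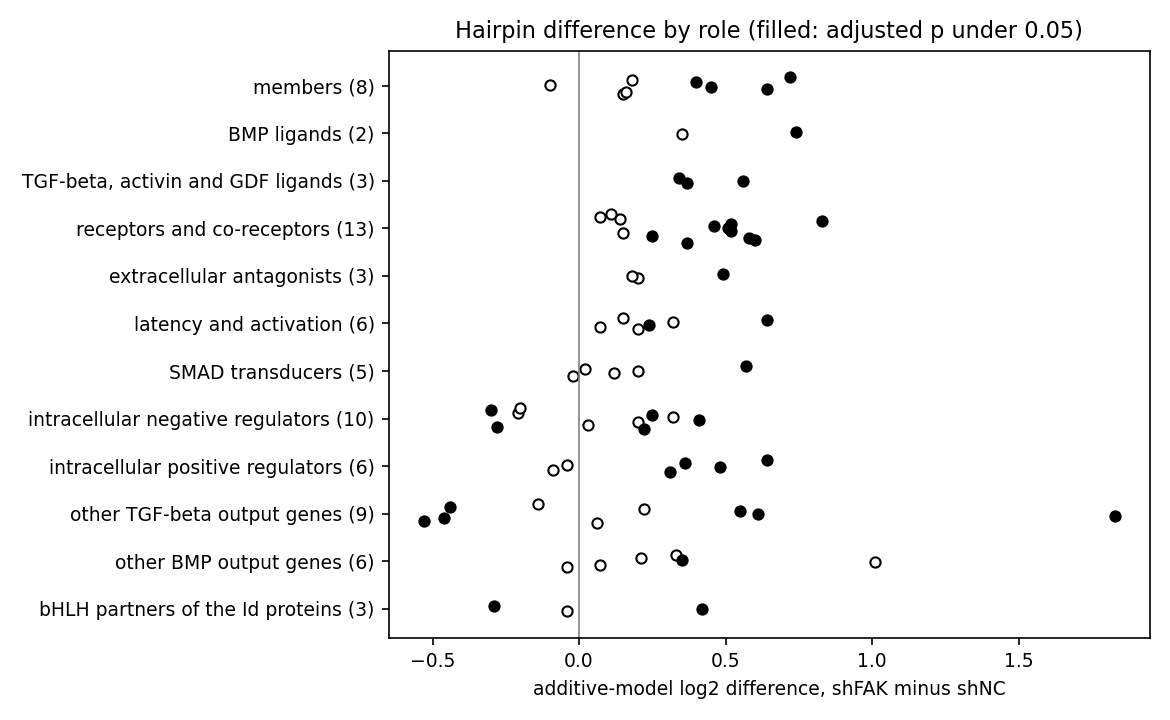
Additive-model log2 difference, shFAK minus shNC (horizontal axis), of each kept gene by role, with the number of genes in brackets and filled points for an adjusted p under 0.05. Receptors and ligands lie to the right of 0, with Tgfbr3 at 0.83. The other TGF-beta output genes lie on both sides, from Cyr61 at -0.53 to Fn1 at 0.61. Col1a1 lies at 1.83 on 4 to 24 counts per library, and passed the filter only through shFAK norepinephrine.

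Genes with the pattern most like that of Id1 or Id3 over the 4 libraries were found by the root-mean-square distance of centred log2 CPM among 9190 protein-coding genes with a mean of at least 5 CPM. For Id1 these were Mcub (distance 0.031), Fbxo2 (0.035), Wfdc6a (0.037), Wdr34 (0.053) and Epn3 (0.061). For Id3 they were Adssl1 (0.011), Zfp503 (0.058), P4ha3 (0.068), Ggt1 (0.073) and Orm1 (0.084). Adssl1, for example, had norepinephrine log2 ratios of 0.60 and 0.48 and hairpin ratios of 0.68 and 0.56. Likeness over 4 libraries is a description and was chosen as the closest of many genes.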

How the data were processed

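RNA-seq libraries were made from 4 Myc-CaP cultures, 1 per group, with a NEBNext Ultra kit, per the labels' protocols, which does not mark strand. The authors deposited raw read counts per gene; HISAT2 2.0.5, featureCounts 1.5.0-p3 and mm10 are named per the submitters' processing notes. The annotation release, strand setting and treatment of multi-mapping reads are not given in the sources used here. The table also holds each gene's length, an other value in bases per the file headers. No per-sample column was left unused.

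From the counts, TMM factors, CPM (prior count 2 for log2 ratios) and TPM were computed in R 4.3.3 with edgeR 4.0.16. Genes at a CPM of at least 1 in at least 1 library were kept. Ratios of 2 libraries have exact 99% Clopper-Pearson intervals, and differences of responses normal-approximation ones. Intervals and floors cover counting error only, and PCR copies of 1 molecule cannot be told from separate molecules. The additive model of hairpin and treatment used edgeR's quasi-likelihood test, with a Benjamini-Hochberg adjusted p threshold of 0.05. Its p-values rest on the departure from additivity pooled over genes, not on the spread between cultures. The code was tested on simulated data. Copies were searched with minimap2 2.31-r1302 on GENCODE transcripts.

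The members, lists, thresholds and tests were chosen with earlier results of these data known. All members are named, and of each pathway list mainly the up to 4 genes with the highest mean CPM; Smad1, Smad9, Itgav, Eng and Col1a1 were added after their values were seen. Alternatives were other scalings, filters, prior counts, fold thresholds, tests (DESeq2 1.42.0) and splines (5 degrees of freedom) of gene length and GC content, available for 99.9% of kept genes. The comparison of Id proteins was not run, as no protein table was used here. Some marker and pathway genes are not reported here.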

Additional observations from a re-analysis of the deposited data

Results flagged for a closer look

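The norepinephrine ratios of Tgfb2 had unlike signs in the lines, at 0.03 in shNC (99% counting interval -0.21 to 0.27) and -0.31 in shFAK. The shNC value did not differ from 0 beyond counting error, and it was -0.01 with library size as the only scaling. The difference, shFAK minus shNC, was -0.33 on the log2 scale, with a 99% counting interval of -0.64 to -0.02. With 1 library per group the difference was not tested against variation between cultures. The difference was -0.29 with that scaling, where the interval no longer left out 0, and -0.42 after removal of the trends with length and GC.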

How the results depend on the processing

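No paired analysis was possible because each group is 1 library. No result changed to a call in the opposite direction under any of the 14 alternatives. Calls of Id3, Smad6 and Tgfb2 as higher in shFAK held in all 10 alternatives of the additive model, with differences of 0.61 to 0.74, 0.43 to 0.52 and 0.60 to 0.79. Skil (0.16 to 0.47) was not called against a 1.2-fold threshold or after removal of the trends with length and GC. The number of members called higher was 3 to 6: Id2 was added with library size only and with the length trend taken off, where Tgfb1 and Id1 were the respective sixth.

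At 1.5-fold, 0 of the 8 genes met the rule for norepinephrine in shNC or in shFAK and 0 for the hairpin in norepinephrine, and at 2-fold 0 did in any pair. With library size only, 6 met the rule of size for the hairpin in vehicle, and without a filter 2 did for norepinephrine in shFAK. Pathway genes called for the hairpin were 35, but 22 with the DESeq2 Wald test and 17 against 1.2-fold. Pathway genes called for norepinephrine were 9, but 0 with DESeq2 (8 at an unadjusted p under 0.05), 0 against 1.2-fold (4), 0 with the length trend taken off (21) and 0 with length and GC taken off (8). Among all genes, the hairpin calls were 2407 higher and 2009 lower, but 956 and 767 with DESeq2, 794 and 354 against 1.2-fold, 1201 lower with library size only, and 1491 or 1479 higher with length or both trends removed. The norepinephrine calls were 623 higher and 907 lower, but 23 and 75 with DESeq2, 42 and 44 against 1.2-fold, 302 and 341 with length taken off, 179 and 214 with length and GC taken off, 363 higher with library size only and 280 higher without a filter. Some alternatives for the difference of responses were added after the data had been seen.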
